A study of Rattus norvegicus with 12 samples.

Results

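Prostaglandin genes were followed in RNA sequencing libraries of rat (Rattus norvegicus) hippocampus, a part of the temporal lobe on which the forming of new memories depends. The 9 genes were chosen by symbol: the cyclooxygenases Ptgs1 and Ptgs2, the prostaglandin D synthases Hpgds and Ptgds, the prostaglandin E synthases Ptges, Ptges2 and Ptges3, the prostaglandin E receptor Ptger4 and the catabolic dehydrogenase Hpgd. Each had 1 row among the 23760 genes of every library, and all 9 were among the 19050 genes tested. The libraries formed 2 groups of 6, AS3h 1 to 6 and NC 1 to 6, in a study of cognitive impairment after prolonged underwater operation. The labels neither expand the names AS3h and NC nor give strain, sex, age, treatment or time of sampling, and they do not say whether each sample came from a different animal, so a p-value here reflects sample-to-sample spread that may be technical. Values are normalised read counts (reads divided by a factor of the library, worked out from the deposited values). A log2FC is the log2 fold change of AS3h over NC on the log2(count + 1) scale, ± its standard error.

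Cyclooxygenases convert arachidonic acid, released from membrane lipids by phospholipases A2 or from endocannabinoids by hydrolases, into an unstable endoperoxide. Terminal synthases turn this endoperoxide into prostaglandin D, E or F, prostacyclin or thromboxane, which act on G-protein-coupled receptors. In the brain, Ptgs2 is expressed in excitatory neurons and induced by synaptic activity, Ptgs1 and Hpgds are associated with microglia, and Ptgds, the lipocalin-type synthase secreted into cerebrospinal fluid as beta-trace, is made by leptomeningeal cells, choroid plexus and oligodendrocytes.

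Hpgds was the 1 gene of the 9 that passed the test: it fell in AS3h hippocampus. None rose and 8 did not pass (limma, Benjamini-Hochberg adjusted p under 0.05 over all genes tested). Of all 19050 genes, 9.26% passed in either direction, 5.04% as higher and 4.22% as lower, so 1 of 9 was near the background. At an unadjusted p under 0.05 there were 3 of the 9 (Hpgds, Ptgs1 and Ptges2), against 24.9% of all genes. The median log2FC was 0.13 over the 9 genes and -0.00428 over all genes tested. In 0 of the 9 genes did the groups separate without overlap, which happened in 5.05% of all genes (3.01% with AS3h above NC and 2.04% with AS3h below).

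**Figure D1:**
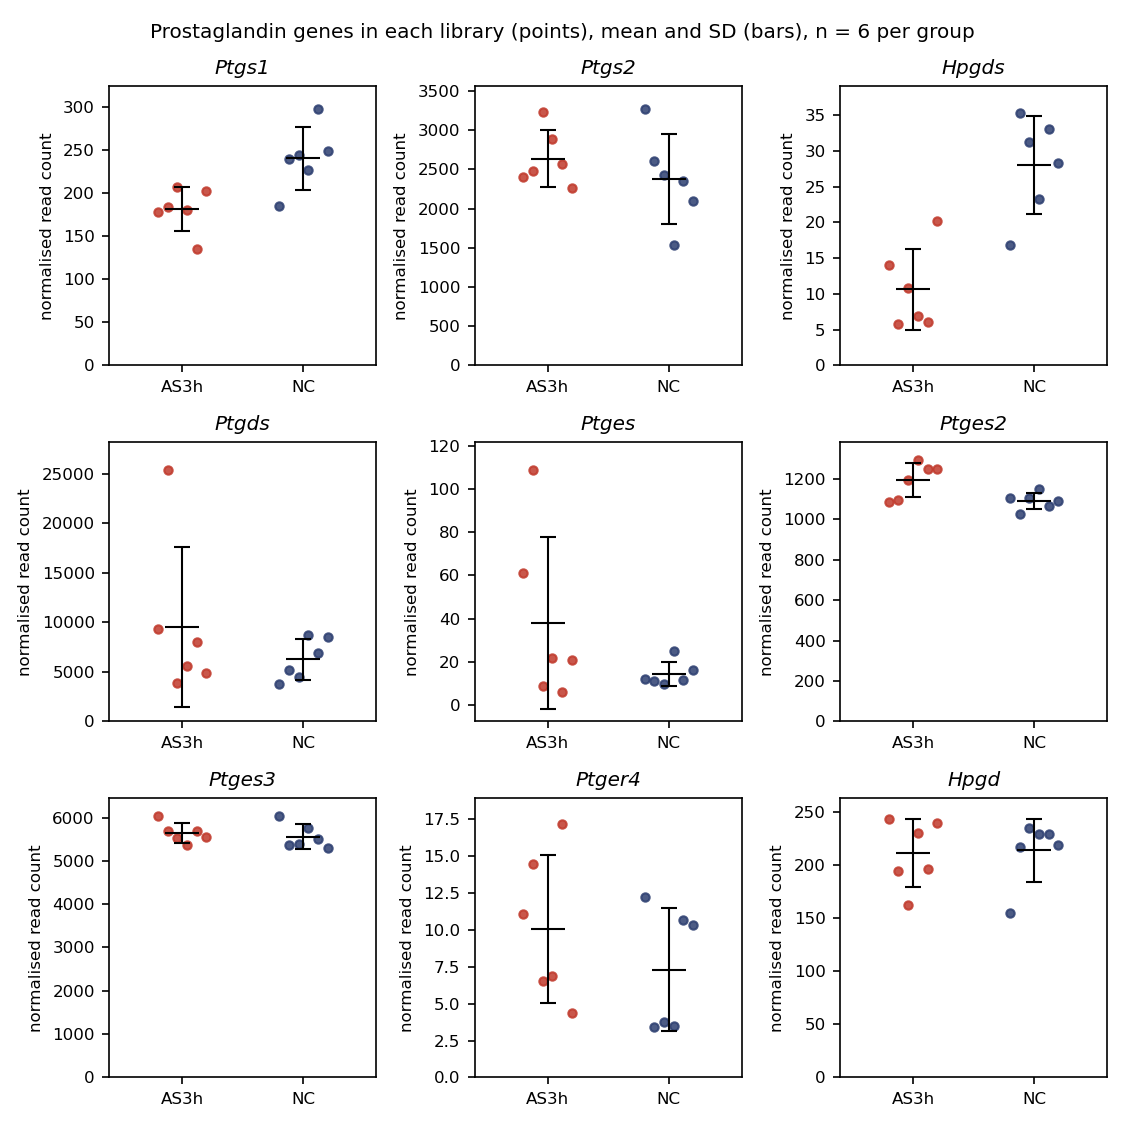
Normalised read counts (y axes, linear) of the 9 prostaglandin genes in the AS3h and NC libraries (x axes), with 1 point per library and bars for the mean and SD. Hpgds sits between 5.79 and 20.2 in AS3h and between 16.9 and 35.4 in NC, and a single AS3h library holds the Ptgds value of 25429.

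Reads assigned to genes ranged from 29.6 to 36.95 M per library in AS3h and from 30.1 to 38.1 M in NC (two-sided exact permutation p = 0.147). All 10 neuronal markers searched for were among the genes tested in these hippocampal samples, with 1 higher and 0 lower. Markers of the tissues that border the hippocampus varied between libraries. The mean log2 level of 15 choroid plexus markers ran from 4.35 to 9.87 in AS3h, highest in AS3h 5 (9.87) and AS3h 4 (7.09), and from 3.82 to 5.6 in NC. The mean log2 level of 11 leptomeningeal markers ran from 6.35 to 9.23 in AS3h, highest in AS3h 2, and from 6.78 to 7.97 in NC. Blood cell markers had 7 rows tested, none of which passed. They included the globins Hba-a3, Hbb and Hba-a2, the last under separate gene identifiers. The mean level of these rows was 8.50 ± 0.58 in AS3h, highest in AS3h 2 at 9.45, and 7.85 ± 0.22 in NC (exact permutation p = 0.013). In bulk RNA, fewer cells of a type and less RNA per cell cannot be told apart.

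The cyclooxygenases did not pass. Ptgs1, the constitutive isoform, had a lowest, median and highest value of 135, 182 and 206 in AS3h and of 185, 242 and 297 in NC. In all, 4 AS3h libraries lay below every NC library, and the ranges overlapped through NC 1 at 185. The log2FC was -0.40 ± 0.13 (limma adjusted p = 0.0564, unadjusted p = 0.00562). Ptgs1 passed with limma-voom on recovered reads (adjusted p = 0.0385), with a filter of at least 10 normalised counts (0.049) and in 2 of the 12 omissions of 1 library. Its log2FC was -0.29 with the choroid plexus covariate (adjusted p = 0.21), -0.33 with blood and choroid plexus covariates (0.354) and -0.089 with the microglial covariate (0.917).

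Ptgs2, the inducible isoform, had values of 2258, 2520 and 3234 in AS3h (lowest, median, highest) and of 1536, 2389 and 3275 in NC. The highest and the lowest of the 12 libraries, NC 1 and NC 4, were both in NC, and every AS3h library lay between them. The log2FC was 0.17 ± 0.15 (limma adjusted p = 0.505), with a 95% interval of -0.14 to 0.49, and it ran from 0.054 without NC 4 to 0.27 without NC 1. Ptgs2 is itself an activity-induced gene, and 10 of 15 immediate early genes rose, against 5.04% of all genes, with 0 lower and a median log2FC of 0.69. Fosb, a subunit of the AP-1 factor, averaged 458 ± 61.7 in AS3h and 159 ± 34.4 in NC (SD, n = 6 each; log2FC 1.54 ± 0.14, limma adjusted p = 5.09e-05). Relative to the mean log2 level of those 15 genes in the same library, Ptgs2 was at 1.67 ± 0.35 in AS3h and 2.22 ± 0.31 in NC, a log2 difference of -0.55 (two-sided exact permutation p = 0.0346, adjusted p = 0.0554 over 8 such differences). With the list median in place of the mean it was -0.34 (exact permutation p = 0.132, adjusted p = 0.264). The log2 ratio of Ptgs2 to Ptgs1 was 3.86 ± 0.26 in AS3h and 3.28 ± 0.48 in NC, higher by 0.58 (exact permutation p = 0.0303, adjusted p = 0.0554). Neither passed after adjustment.

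The 250 bases before the start of the 2 cyclooxygenase genes are printed with their matches to a few motifs. They were taken from RefSeq (GRCr8, a later assembly than the mRatBN7.2 of the deposited values), 5′ to 3′ along the gene. Capitals mark matches, on either strand, to 6 motifs. A PU.1-type ETS site was searched as GAGGAAG, after the factor that myeloid cells need. An E-box was searched as CACGTG, bound by basic helix-loop-helix factors. The cAMP response element, bound by CREB, was searched as TGACGTCA in full. An AP-1 site, bound by Fos and Jun dimers, was searched as TGANTCA. The TATA box was searched as TATAAA, and the GC box, bound by Sp1, was searched as GGGCGG.
Ptgs1, chr3:39981169-39981418, plus strand: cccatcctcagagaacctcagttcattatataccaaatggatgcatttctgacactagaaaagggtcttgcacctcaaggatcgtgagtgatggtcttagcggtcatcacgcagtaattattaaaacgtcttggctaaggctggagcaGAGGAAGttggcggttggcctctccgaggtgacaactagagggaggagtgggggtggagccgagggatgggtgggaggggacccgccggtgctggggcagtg
Ptgs2, chr13:64713813-64714062, plus strand: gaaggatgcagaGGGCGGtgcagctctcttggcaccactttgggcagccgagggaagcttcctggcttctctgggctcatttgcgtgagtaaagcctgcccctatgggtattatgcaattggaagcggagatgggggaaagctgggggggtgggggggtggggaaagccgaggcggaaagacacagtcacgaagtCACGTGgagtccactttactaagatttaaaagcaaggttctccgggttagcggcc
The Ptgs1 window held 1 match, the PU.1-type ETS letters that start 102 bases before the gene, a motif present in 10.2% of the 33469 promoter windows of the same length. The Ptgs2 window held an E-box 55 bases before the gene, found in 5.59% of windows, and a GC box 238 bases before it, found in 30.5%. Neither held the response element, AP-1 or TATA letters, present in 1.59%, 6.34% and 12.9% of windows. Only exact letters were searched, so variant sites were not counted. The matches are letters in a window and were not tested for binding, and they do not show how the 2 promoters differ in function.

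Hpgds encodes the hematopoietic prostaglandin D synthase, a glutathione-dependent enzyme of the sigma class of glutathione transferases. The lowest, median and highest normalised counts were 5.79, 8.87 and 20.2 in AS3h and 16.9, 29.8 and 35.4 in NC. Of the AS3h libraries, 5 lay below every NC library, and the ranges met where AS3h 6 (20.2) exceeded NC 1 (16.9). The gene was 2.66-fold lower in AS3h (log2FC -1.41 ± 0.32, 95% interval -2.09 to -0.74, limma adjusted p = 0.0125). The counts were small, 66 reads over the AS3h libraries and 183 over the NC libraries, with 6 to 41 reads per library. All 12 omissions of 1 library kept the call (adjusted p = 0.00638 to 0.0357), with log2FC from -1.61 to -1.28.

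The AS3h libraries lowest in Hpgds were AS3h 2 (5.79), AS3h 5 (6.06) and AS3h 4 (6.88), which also had the 3 highest choroid plexus levels in the group (6.06, 9.87 and 7.09). Without AS3h 4 and AS3h 5 the log2FC was -1.16 (limma adjusted p = 0.0687). With the choroid plexus level as a covariate it was -1.10 (adjusted p = 0.0586), and with the blood level added -1.03 (adjusted p = 0.249). Across the 12 libraries, each centred on its group mean, Hpgds and the choroid plexus level had a Pearson r of -0.60 (permutation p = 0.104, adjusted p = 0.167) and a Spearman rho of -0.53 (permutation p = 0.121, adjusted p = 0.194). Without AS3h 5 and AS3h 6, the libraries farthest out on the choroid plexus scale, r was -0.36. Within AS3h r was -0.76, but within NC it was 0.27, so the inverse relation was seen in AS3h alone. Of the 16 choroid plexus markers, 15 were tested, with a median log2FC of 1.40, and 1 passed: Kcne2, a potassium channel subunit, at 255 ± 202 in AS3h and 83.6 ± 20.5 in NC (log2FC 1.37 ± 0.33, limma adjusted p = 0.0205). None of the 16 markers was at 0 in every library, and their summed level ran from 777 to 74817 in AS3h and from 538 to 1742 in NC. Their part in the Hpgds difference was not tested beyond these values.

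Of 17 microglial markers tested, 2 fell (4.22% of all genes did), 0 rose and 15 did not pass, with log2FC from -0.71 to 0.15 and a median of -0.25. Cx3cr1, the fractalkine receptor gene, averaged 375 ± 74.8 in AS3h and 542 ± 47.4 in NC (log2FC -0.55 ± 0.12, limma adjusted p = 0.00883). The mean log2 level of the list was 8.89 ± 0.10 in AS3h and 9.16 ± 0.12 in NC (exact permutation p = 0.00866). Its summed level ran from 11746 to 13511 in AS3h and from 12337 to 15281 in NC, with 0 of the 17 genes at 0 in every library. The levels of 3 other cell type lists were also lower in AS3h, each unadjusted over the lists: the difference was -0.19 for oligodendrocyte precursors (exact permutation p = 0.0195), -0.098 for astrocytes (p = 0.0433) and -0.36 for mast cells (p = 0.0476), against -0.26 for microglia. The mast cell difference rested mostly on Fcer1a, a sparse gene described below. Hpgds stood below the microglial level by more in AS3h: the log2 difference between Hpgds and the microglial list was -5.49 ± 0.61 in AS3h and -4.34 ± 0.31 in NC, which left a gap of -1.15 (two-sided exact permutation p = 0.00649, adjusted p = 0.026). The gap kept its size and its unadjusted p with the list median, at -1.14, where the adjusted p was 0.0519. For Ptgs1 the corresponding differences were -1.40 ± 0.17 in AS3h and -1.26 ± 0.18 in NC, a gap of -0.14 (exact permutation p = 0.201, adjusted p = 0.268). With the microglial level as a covariate, which moved with the groups, the log2FC of Hpgds was -0.64 (limma adjusted p = 0.659) and 101 genes passed in all.

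Mast cells and border macrophages also express Hpgds. Of 5 mast cell genes tested 0 passed, with a median log2FC of -0.14 and a mean level of 4.45 ± 0.29 in AS3h and 4.80 ± 0.27 in NC, and Cpa3, Cma1 and Mcpt2 were not analysed here. Fcer1a, a chain of the immunoglobulin E receptor, had 6 reads in AS3h, with 4 libraries at 0, and 47 reads in NC, with 2 libraries at 0 (log2FC -1.72 ± 0.77, limma adjusted p = 0.183). The other mast cell genes tested had a log2FC of 0.15 (Kit), 0.069 (Hdc), -0.14 (Ms4a2) and -0.14 (Tpsab1). The lower mean level of that list in AS3h thus rested mostly on Fcer1a. Kit averaged 4652 ± 900 in AS3h and 4157 ± 604 in NC, while the group means of Ms4a2 and Tpsab1 lay between 3.09 and 3.92. Which cells these reads came from was not tested. Of 7 border macrophage genes, 0 passed, with a median log2FC of 0.21 and the highest mean level in AS3h 2. Within groups, the Pearson r of Hpgds with the microglial level was 0.61 (permutation p = 0.0376, adjusted p = 0.10) and Spearman rho 0.53 (permutation p = 0.0886, adjusted p = 0.177), and r was 0.35 without AS3h 5 and NC 1. For Ptgs1 and the microglial level r was 0.62 (permutation p = 0.05, adjusted p = 0.10) and rho 0.35 (permutation p = 0.29, adjusted p = 0.332), and r was -0.072 without the same 2 libraries, so that relation rested on them. The 5 genes most like Hpgds over the 12 libraries, by Pearson r of values centred on the group means, were Urgcp (0.86), Actn2 (0.86), Cyp4f1 (0.85), Pdzd9 (0.85) and Por (0.81), with Spearman rho from 0.73 to 0.88. They were the top of 13164 candidates, so they carry no p-value, and the few Hpgds reads add counting error to each r.

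**Figure D2:**
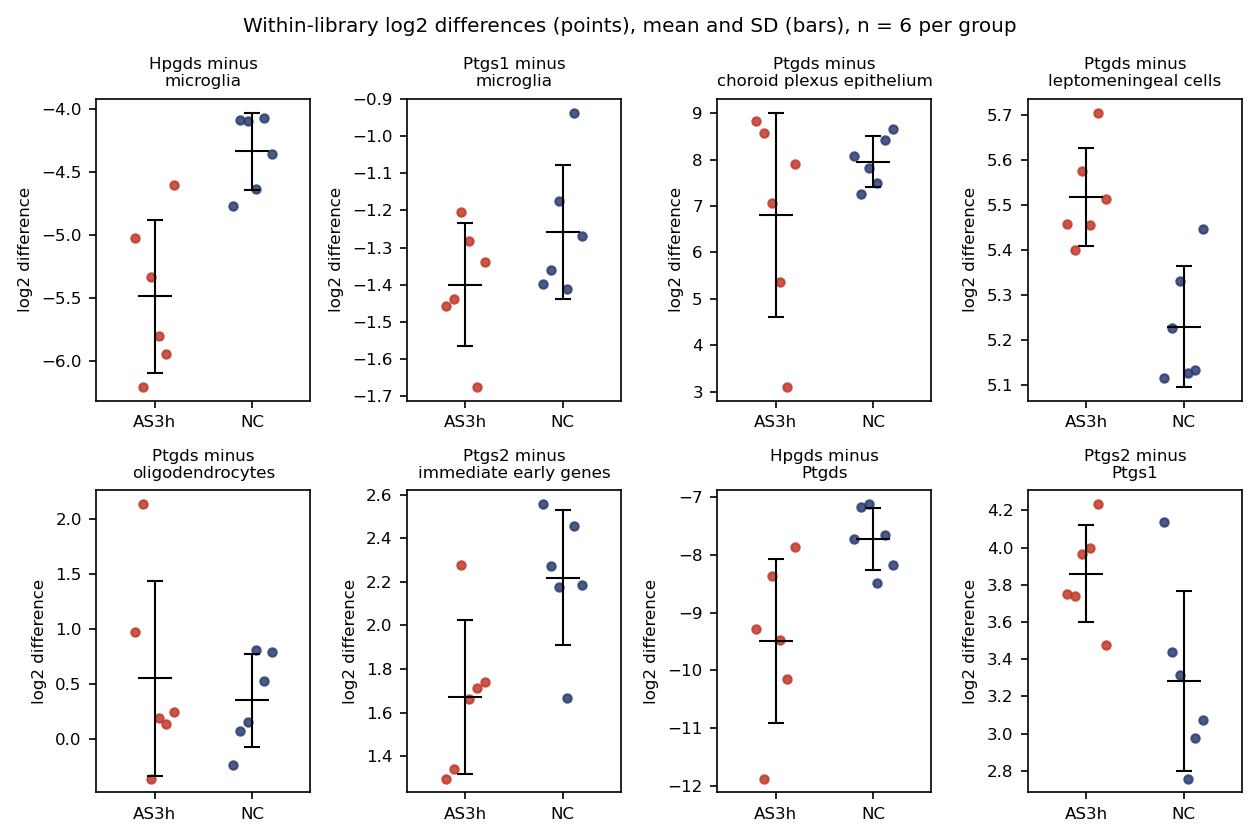
Log2 value of a gene minus the mean log2 level of a marker list, or minus another gene, within each AS3h and NC library (points), with mean and SD bars. Hpgds minus microglia averages -5.49 in AS3h and -4.34 in NC, while Ptgs1 minus microglia averages -1.40 in AS3h and -1.26 in NC.

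Ptgds varied more between libraries of 1 group than between the groups. Its lowest, median and highest values were 3892, 6783 and 25429 in AS3h and 3810, 6042 and 8759 in NC. The highest 2 of the 12 libraries were AS3h 2 (25429) and AS3h 1 (9333), and the other 4 AS3h values fell inside the NC range. The log2FC was 0.36 ± 0.43 (limma adjusted p = 0.663), with a 95% interval of -0.60 to 1.32. Without AS3h 2 it was 0.012. The blood and leptomeningeal levels that were highest in the same library are given above, and what part they have in its Ptgds count was not tested.

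The library values of Ptgds followed leptomeningeal markers. Centred on the group means, Ptgds and the mean log2 level of the 11 markers had a Pearson r of 0.99 and a Spearman rho of 0.96 over the 12 libraries (permutation p = 2e-05 and adjusted p = 0.00016 for both, over 8 pairs of a gene and a list). The 8 pairs were chosen after these values were seen, and their adjusted p-values do not cover that choice. Within AS3h r was 0.995, and within NC 0.96. Without AS3h 2 and AS3h 3, the 2 libraries farthest out, r was 0.96, and over the 12 omissions of 1 library it ran from 0.97 to 0.99. The libraries were the points, and all values of a library share its dissection and its depth. With the choroid plexus level r was 0.20 (permutation p = 0.62, adjusted p = 0.624) and rho 0.42 (permutation p = 0.218, adjusted p = 0.29), and r was 0.19 without AS3h 5 and AS3h 6. With the oligodendrocyte level r was 0.47 (permutation p = 0.236, adjusted p = 0.315) and rho 0.57 (permutation p = 0.0757, adjusted p = 0.177), and r was 0.66 without the same 2 libraries. AS3h 5, which had 61060 normalised counts of the choroid plexus gene Ttr, had a Ptgds count of 7978, inside the NC range. Relative to the leptomeningeal level of the same library, however, its Ptgds was the highest of the 12 libraries (log2 difference 5.71). What part the choroid plexus has in its Ptgds count was not tested.

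**Figure D3:**
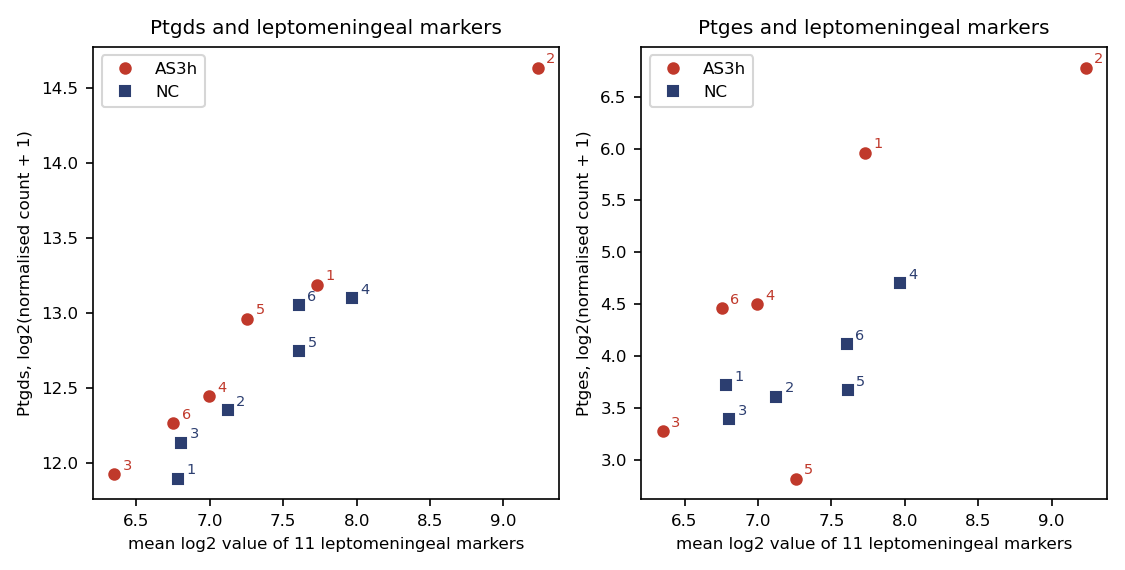
Log2 values of Ptgds (left panel) and Ptges (right panel) against the mean log2 value of 11 leptomeningeal markers, 1 point per library, numbered by replicate (AS3h circles, NC squares). AS3h 2 lies at the top right in both panels, and the Ptgds points keep to a narrow diagonal band (r = 0.99 on group-centred values).

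None of the 11 leptomeningeal markers passed, and their mean level was 7.39 ± 1.02 in AS3h and 7.32 ± 0.49 in NC (exact permutation p = 0.905). Their summed level ran from 1832 to 10641 in AS3h and from 2048 to 4016 in NC, and 0 of the 11 were at 0 in every library. Measured against that level, Ptgds was higher in AS3h: the difference between Ptgds and the list was 5.52 ± 0.11 in AS3h and 5.23 ± 0.13 in NC, a gap of 0.29 (two-sided exact permutation p = 0.00433, adjusted p = 0.026). With the level as a covariate the log2FC of Ptgds was 0.29 ± 0.065 (limma adjusted p = 0.0121). This covariate was chosen after these values were seen and takes out the same list level, so the fit is not separate support for the gap. The gap lost its call with other summaries of the list. With the list median it was 0.16 (exact permutation p = 0.249, adjusted p = 0.381), and with markers of at least 10 normalised counts 0.17 (adjusted p = 0.132). Slc47a1, the sparsest of the 11 markers, averaged 6.17 ± 4.31 in AS3h and 15.5 ± 16.5 in NC. Its log2FC of -1.14 was the lowest of the list and pulls the list mean down in AS3h. Against the choroid plexus list the gap was -1.15 (adjusted p = 0.329), and against the oligodendrocyte list 0.20 (adjusted p = 0.686).

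The genes most like Ptgds over the 12 libraries were Flna (Pearson r 0.96), Col3a1 (0.95), Islr (0.95), Col6a2 (0.95) and Ogn (0.95), with Spearman rho from 0.87 to 0.95. Flna encodes the actin-binding protein filamin A, Col3a1 and Col6a2 collagen chains, and Ogn a small leucine-rich proteoglycan of the matrix. Col3a1 and Ogn are also in the leptomeningeal list. Col3a1 was at 2288 in AS3h 2, against 134 to 552 in NC. The log2 ratio of Hpgds to Ptgds was -9.50 ± 1.42 in AS3h and -7.73 ± 0.54 in NC, a gap of -1.77 (exact permutation p = 0.013, adjusted p = 0.0346), and 5 of the 12 omissions of 1 library lost that call.

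Ptges, the inducible microsomal prostaglandin E synthase, had lowest, median and highest values of 6.06, 21.3 and 109 in AS3h and of 9.48, 11.97 and 25.0 in NC. AS3h 2 (109) and AS3h 1 (61.3) stood above every NC library, while AS3h 3 (8.69) and AS3h 5 (6.06) stood below all of them. The log2FC was 0.76 ± 0.56 (limma adjusted p = 0.433), and it was 0.34 without AS3h 2 and 1.13 without AS3h 5. Ptges was the gene of the 9 whose library values were most like those of Ptgds (Pearson r 0.74 on group-centred values). With the leptomeningeal level it had a Pearson r of 0.80 (permutation p = 0.00733, adjusted p = 0.0293) and a Spearman rho of 0.64 (permutation p = 0.0523, adjusted p = 0.177). Without AS3h 2 and AS3h 3 r was 0.52, and without AS3h 2 alone 0.60 (permutation adjusted p = 0.134). Within AS3h r was 0.81 and within NC, which holds neither library, also 0.81. The NC value came from 6 libraries with 10 to 29 Ptges reads each. Over the 12 omissions of 1 library, the Pearson correlation kept its call in 6 (permutation adjusted p = 0.00168 to 0.136).

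The windows before Ptgds and Ptges are printed because Ptges was, of the 9 genes, the one most like Ptgds across libraries, although AS3h 5 was lowest of the 12 libraries in Ptges and not in Ptgds. They have the same source, length and capitals as those of the cyclooxygenases.
Ptgds, chr3:28682979-28683228, minus strand: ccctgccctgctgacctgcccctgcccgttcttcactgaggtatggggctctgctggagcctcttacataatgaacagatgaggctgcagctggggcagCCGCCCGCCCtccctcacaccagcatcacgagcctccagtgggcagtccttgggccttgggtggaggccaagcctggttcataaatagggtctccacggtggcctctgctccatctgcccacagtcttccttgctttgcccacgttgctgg
Ptges, chr3:34586988-34587237, minus strand: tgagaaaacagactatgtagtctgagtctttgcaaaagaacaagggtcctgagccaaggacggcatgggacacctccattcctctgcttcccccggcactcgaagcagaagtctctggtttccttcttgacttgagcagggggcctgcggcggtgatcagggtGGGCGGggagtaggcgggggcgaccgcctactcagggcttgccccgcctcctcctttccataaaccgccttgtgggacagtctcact
The capitals in both are GC boxes. The Ptgds window held 2 on the opposite strand, which overlap and start 151 and 147 bases before the gene, and the Ptges window held 1, at 87 bases. With 30.5% of all windows holding such a match, it does not set this pair apart. RefSeq windows were matched for 7 of the 9 genes; Hpgds and Ptges2 had none.

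The other prostaglandin E synthases did not pass and varied little between libraries. Ptges2, a membrane-associated synthase, had values of 1084, 1221 and 1291 in AS3h (lowest, median, highest) and of 1028, 1096 and 1150 in NC. AS3h 3 to AS3h 6 exceeded every NC library, and AS3h 1 and AS3h 2 did not. The log2FC was 0.13 ± 0.057 (limma adjusted p = 0.177). Ptges3, a cytosolic synthase also known as the p23 co-chaperone of Hsp90, had values of 5368, 5615 and 6025 in AS3h and of 5287, 5441 and 6047 in NC. Its log2FC was 0.022 ± 0.045, with a 95% interval of -0.075 to 0.12 (adjusted p = 0.816), the narrowest of the 9 genes.

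Ptger4, the stimulatory prostaglandin E receptor EP4, was sparse. It had 61 reads over the AS3h libraries and 47 over the NC libraries, with normalised values from 4.38 to 17.2 in AS3h and from 3.45 to 12.2 in NC. AS3h 5 and AS3h 2 were the highest of the 12 libraries, and the ranges overlapped for the rest (log2FC 0.45 ± 0.41, limma adjusted p = 0.543). Hpgd, the dehydrogenase that inactivates prostaglandins, had values of 163, 214 and 244 in AS3h (lowest, median, highest) and of 155, 224 and 235 in NC. The log2FC was -0.018 ± 0.13 (adjusted p = 0.954), with a 95% interval of -0.29 to 0.25. NC 1 was the lowest of the 12 libraries for Hpgd and the highest for Ptgs2.

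**Figure D4:**
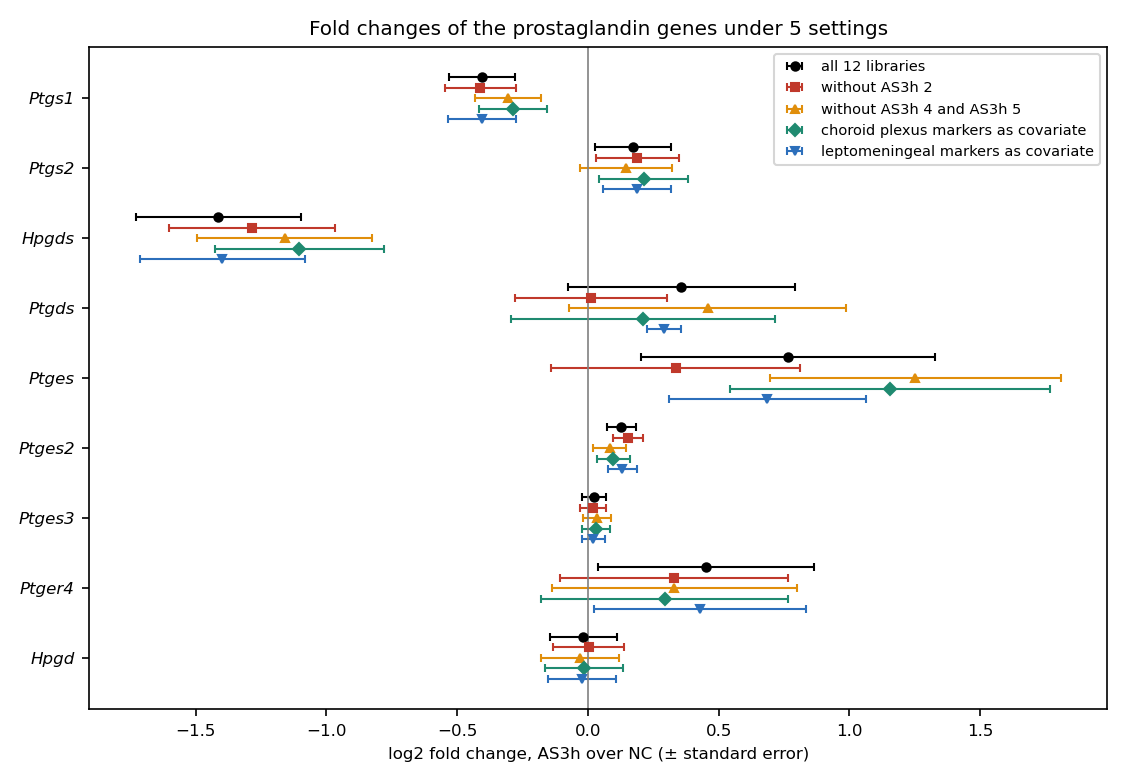
Log2 fold change of AS3h over NC (x axis, ± standard error) for the 9 genes (rows) with all 12 libraries, without AS3h 2, without AS3h 4 and AS3h 5, and with choroid plexus or leptomeningeal levels as a covariate. Hpgds lies between -1.41 and -1.10 in the 5 settings drawn, with its call lost without AS3h 4 and AS3h 5 and with the choroid plexus covariate (the microglial covariate, at -0.64, and blood with choroid plexus, at -1.03, are not drawn), and the Ptgds standard error is 0.43 with all 12 libraries and 0.065 with the leptomeningeal covariate.

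Beyond the 9 genes, the rest of the arachidonate pathway was read from 6 lists. In the other prostanoid receptors, 1 of 8 fell (4.22% of all genes did) and 0 rose, with a median log2FC of 0.29. The one that fell was Ptger3, the inhibitory prostaglandin E receptor EP3. Its lowest, median and highest values were 15.2, 34.1 and 52.5 in AS3h and 54.9, 80.2 and 108 in NC. All 6 AS3h libraries lay below all 6 NC libraries, as in 2.04% of all genes tested (log2FC -1.27 ± 0.26, limma adjusted p = 0.00711). Ptger3 passed in all 12 omissions of 1 library, without AS3h 4 and AS3h 5 and with the choroid plexus covariate, but not with the microglial covariate (-1.31, adjusted p = 0.223).

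Among 12 genes for arachidonate release, 3 rose (5.04% of all genes did), 0 fell and 9 did not pass, with a median log2FC of -0.017. Pla2g12a, a secreted phospholipase A2, averaged 899 ± 80.3 in AS3h and 723 ± 39.0 in NC (SD, n = 6 each; log2FC 0.31 ± 0.068, limma adjusted p = 0.011), and its groups did not overlap, as in 3.01% of all genes with AS3h above. Pla2g3, another secreted form, had values from 257 to 467 in AS3h and from 63.9 to 361 in NC, where NC 6 was highest (log2FC 1.22 ± 0.33, adjusted p = 0.036). Pla2g4f, a cytosolic form, had 147 reads over the AS3h libraries and 80 over the NC libraries (log2FC 0.92 ± 0.24, adjusted p = 0.0272). Pla2g3 lost its call in 8 and Pla2g4f in 5 of the 12 omissions of 1 library, and without AS3h 4 and AS3h 5 none of the 3 passed (adjusted p = 0.0686 to 0.113).

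The other lists held no gene that passed. Of 7 endocannabinoid enzymes the median log2FC was 0.12, and Faah, fatty acid amide hydrolase, had the smallest p (0.20 ± 0.072, limma adjusted p = 0.104). Of 6 rows for other prostanoid synthases the median was -0.072; Tbxas1, thromboxane synthase, averaged 46.7 ± 7.06 in AS3h and 66.2 ± 14.2 in NC (log2FC -0.48 ± 0.18, adjusted p = 0.103). Of 5 genes for prostaglandin transport and breakdown the median was -0.057, with the transporter gene Slco2a1 at 0.43 ± 0.30 (adjusted p = 0.414). Of 11 leukotriene and lipoxygenase genes the median was -0.058, and Alox5, which starts leukotriene synthesis, was at -0.70 ± 0.27 (adjusted p = 0.128).

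**Figure D5:**
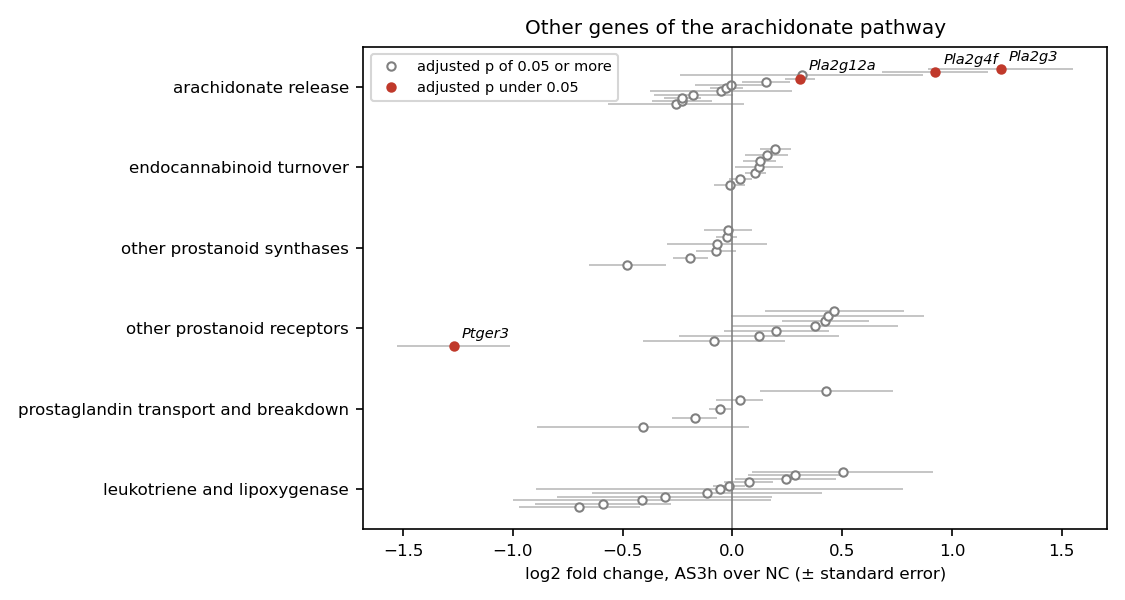
Log2 fold change of AS3h over NC (x axis, ± standard error) for each tested gene of 6 arachidonate pathway lists (rows). Filled points passed an adjusted p of 0.05: Pla2g12a, Pla2g4f and Pla2g3 to the right of 0 and Ptger3 to the left.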

How the data were processed

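RNA was measured in 12 rat hippocampus libraries, 6 AS3h and 6 NC, made strand-specific per the labels' protocols. STAR, FastQC 0.11.5 and the assembly mRatBN7.2 stand in the submitters' processing notes. The sources used here do not name the program, annotation or filters behind the read counts, so overlapping or near-identical genes can share reads. The deposited values are on a log2 scale. Each equals log2(1 + reads / f), where f is a factor of the library between 0.92 and 1.16, as worked out from the values; whole reads came back for 100% of values within 0.02 read.

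The design named a count test if counts were deposited; with log2 values its stated fallback, limma 3.58.1 in R 4.3.3 (trend, robust), was fitted to group alone on genes with a normalised value of at least 1 in at least 6 libraries. P-values were adjusted by Benjamini-Hochberg over the 19050 genes tested. The 8 within-library differences used two-sided exact permutation tests (smallest p = 0.00216). The 8 correlations used 100000 permutations within groups. Both were adjusted over their 8 tests. Steps were tested on simulated data. The members, marker lists and alternatives were chosen with earlier results of these data known; the leptomeningeal covariate, the 8 pairs correlated, the promoter motifs and the alternatives for the correlations were chosen after these values were seen. Genes named were the 9 members, of each list up to 4 past the threshold (or the 2 smallest p), and the 5 most like Hpgds and Ptgds with a mean log2 value of at least 5; of the marker lists only genes a result turns on are printed, and Col3a1 and Ttr values were picked after being seen. Replicate libraries differed by a chi-square of at least 11.4 per degree of freedom. No batch is given in the labels. The lists not described in the results gave these calls: astrocytes (0 of 9), blood cells (0 of 7 rows), oligodendrocytes (1 higher and 2 lower of 14), oligodendrocyte precursors (1 lower of 6) and endothelial cells (1 higher and 2 lower of 8). Levels are not compared between genes, since transcript lengths were not used here. Intervals in reads cover counting error only. Figures used matplotlib 3.10.9.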

Additional observations from a re-analysis of the deposited data

Results flagged for a closer look

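Of 88 groups of 6 values examined (the 9 genes on 2 scales, the 8 differences and the 18 list levels, in each group), 4 held a library far from the other 5, about what chance gives at 1 in 20. Ptgds in AS3h 2 stood at 25429 normalised counts, with the next AS3h library at 9333; on the log2 scale it was not flagged. Hpgd in NC 1 stood at 155 normalised counts, or 7.29 on the log2 scale, with the next NC library at 217 (7.77 on the log2 scale). Ptgs1 in AS3h 5 stood at 7.09 on the log2 scale, with the next AS3h library at 7.48.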

How the results depend on the processing

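All 9 fold changes kept their side of the threshold and their direction with recomputed or total-read factors, no filter and a pseudocount of 0.1. The count of genes passing was 1764; it was 860 without AS3h 4 and AS3h 5, 238 with blood and choroid plexus covariates, 101 with the microglial covariate and 1030 to 1788 over omissions of 1 library, lowest without NC 2. The Hpgds log2FC lost its call without AS3h 4 and AS3h 5 (-1.16), with the choroid plexus (-1.10), blood and choroid plexus (-1.03) and microglial (-0.64) covariates, and ran from -1.61 to -1.28 over omissions. Ptgs1 gained a call with limma-voom (-0.40) and the filter at 10 (-0.40), and ran from -0.48 to -0.32 over omissions. Ptgds gained a call with the leptomeningeal covariate (0.29). Uncalled values changed sign with the microglial covariate for Ptgs2 (-0.24), Ptges3 (-0.025), Ptger4 (-0.31) and Hpgd (0.24), and with blood and choroid plexus covariates for Ptgds (-0.73) and Ptges (-0.076). Over omissions Hpgd ran from -0.11 to 0.054.

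Same-numbered AS3h and NC libraries did not deviate together (correlations -0.015 to 0.027), so the numbers were not taken as pairs. With the replicate block 1296 genes passed and the Hpgds log2FC was -1.41 (limma adjusted p = 0.039). In the sign-flip replicate block, whose smallest p is 0.0312, the gaps of Hpgds from microglia (-1.15), Ptgds from leptomeningeal markers (0.29) and Hpgds from Ptgds (-1.77) lost their calls (adjusted p = 0.125, 0.125 and 0.15). These 3 also lost theirs without AS3h 4 and AS3h 5 (-0.96, 0.26 and -1.62), where the Ptgds gap from the choroid plexus list turned to 0.14. The Hpgds gap missed the adjusted threshold with the list median (-1.14) and with list genes at 10 (-1.15), at an unchanged unadjusted p of 0.00649. The Ptgds gap from leptomeningeal markers also missed it in these 2 settings, shrinking to 0.16 and 0.17, and its unadjusted p rose with the list median. Over omissions the Hpgds to Ptgds gap ran from -2.10 to -1.30, Ptgs2 from the immediate early genes from -0.67 to -0.47, Ptgs2 from Ptgs1 from 0.47 to 0.75, and Ptgds from oligodendrocytes from -0.12 to 0.38. The Ptges correlation with leptomeningeal markers was 0.76 with list genes at 10 (adjusted p = 0.0522) and 0.60 to 0.92 over omissions. The causes were not tested. Depth limits Hpgds, Ptges and Ptger4, with 4 to 113 reads per library.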
